A study of Mus musculus with 2 samples.

Results

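Oxidative phosphorylation genes were examined in mouse biliary epithelial cells: the genes for the subunits of the 5 complexes of the mitochondrial inner membrane, in both genomes that encode them. Members were taken by gene name, with the family prefixes of complex I (Ndufa, Ndufb, Ndufc, Ndufs, Ndufv), complex III (Uqcr), complex IV (Cox4i, Cox5, Cox6, Cox7, Cox8) and complex V (Atp5), with Cyc1 and Sdha to Sdhd, and with the mRNAs of the mitochondrial genome. Pseudogene names were left out and at least 20 UMIs (unique molecular identifiers, 1 per captured transcript) were required over both libraries. This gave 98 genes of the 15347 that reach that minimum among 55415 listed. Of these, 90 are nuclear and 8 are mitochondrial. The gene table writes cytochrome b as mt-Cytb where the rule's spelling is mt-Cyb, and it was counted as a member. The prefixes also take in genes that are not subunits, so a role was given to each nuclear member: 78 structural subunits (37 of complex I, 4 of complex II, 9 of complex III, 11 of complex IV, 17 of complex V), 8 complex I assembly factors of the Ndufaf series, the supercomplex factor Cox7a2l, the isoforms Cox4i2 and Cox7a1, and a second locus that carries the symbol Atp5o. Sums below are over the 78 structural subunits and over the 13 mitochondrial mRNAs.

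Complexes I, III and IV pass electrons from NADH to oxygen and pump protons out of the matrix, complex II feeds electrons in from succinate, and complex V makes ATP as protons flow back. Complex II is made from nuclear genes alone, while each of the others joins nuclear subunits, which are translated in the cytosol and imported, with subunits that are transcribed and translated inside the mitochondrion. The 2 sets of transcripts are therefore made by separate machineries and are counted here side by side in the same cells.

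The study compared biliary epithelial cells of mouse liver in 1 library with the genotype label Sox9cKO and 1 with the label Sox9con. Sox9 is a transcription factor of these cells, and the series title calls the former Sox9-deficient. The cells were fixed, and their RNA was tagged in rounds of pooling and splitting, with random hexamer and oligo(dT) primers, so that reads are not confined to the 3′ ends of transcripts. The allele, the Cre driver, the age of the animals and the number of animals behind each library are not given in the sources used here.

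The cKO-labelled library had 2740 cells and 14856321 UMIs, the control-labelled library 3622 cells and 12811243 UMIs, and no barcode occurs in both. After filtering, 2710 and 3505 cells were left, of which 2600 and 3370 formed the biliary fraction, with median depths of 5125 and 3226 UMIs per cell. This fraction had 13 of 14 biliary markers at 50 CPM (UMIs per 1000000 UMIs of the same cells) or more in both libraries, and none of the 14 endothelial markers. It also had 2 of 12 hepatocyte markers at that level, with Alb at 590 and 365 CPM, and 2 of 12 mesenchymal markers, with Reln at 234 and 200 CPM. The part of RNA from other cell types in its values was not tested. The cells outside this fraction were 83 and 115 endothelial-like cells, 9 and 7 mesenchymal-like cells and 18 and 13 cells without a name. Sox9 itself stood at 122 CPM in the cKO-labelled biliary fraction and at 146 CPM in the control-labelled one. Its levels in the first-round wells of the barcoding ran from 102 to 145 CPM and from 74.3 to 221 CPM, so the wells overlap, and Sox9 itself gives no clear check of the genotype. Every direction below rests on the labels. The cKO-labelled cells lay in wells A11, A12, B1, B2 and B3, and the control-labelled cells in wells D9, D10, D11 and D12. Wells and libraries cannot be told apart. Whether the wells of a library hold parts of 1 cell suspension or different animals is not given in the sources used here. Wells are given as a spread within a library. With 1 library per label there is no test, and the 95% intervals cover counting error only.

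Not every mitochondrial mRNA could be counted. In GENCODE M21 (GRCm38), 98% or more of the 30-base stretches of 5 of the 13 mRNAs also occur in transcripts of other genes, mostly copies of mitochondrial sequence on chromosome 1. These were mt-Co2 (100%, with Gm28661), mt-Co3 (99.9%), mt-Atp6 (99.5%), mt-Nd4l (98.9%) and mt-Nd3 (98.1%), and they had 0, 0, 1, 2 and 56 UMIs in all cells. mt-Atp8, with little shared sequence, also had 0 UMIs. For mt-Co1 and mt-Nd4 the shared part was 64.8% and 62.8%, and the remaining mRNAs had less than 18%. How reads with more than 1 place in the genome were counted is not given in the sources used here, and the levels of these mRNAs were not compared with each other. mt-Nd6 lies on the other strand and overlaps the end of mt-Nd5 (chrM:13552-13565), and whether counting used strand is not given in the sources used here. In this series complex III is followed on the mitochondrial side by mt-Cytb, complex IV by mt-Co1, complex I by mt-Nd1, mt-Nd2, mt-Nd4, mt-Nd5 and mt-Nd6, and complex V by none. Among the nuclear subunits, 7 share 50% or more of their 30-base stretches with other genes (Atp5g2, Atp5h, Atp5l, Atp5o, Cox7c, Ndufs3 and Uqcrb), with 8.18% of the nuclear UMIs.

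The nuclear members sit on many chromosomes and have separate promoters. RefSeq promoter windows (GRCm38.p6, 250 bases before to 50 after the transcription start) were found for 75 of the 90 nuclear members, 66 of them structural subunits. The windows of 5 members described below are shown because they carry, or lack, short motifs of factors known to bind promoters of nuclear mitochondrial genes. Capitals mark an NRF1 motif (GCATGCGC) or a YY1 motif (AAGATGGC) on either strand. Ndufs4 lies at chr13:114388045-114388344 on the minus strand, Sdhb at chr4:140961021-140961320 on the plus strand, Cox6a1 at chr5:115348909-115349208 on the minus strand, Atp5pb at chr3:105959214-105959513 on the minus strand, and Cox7a1 at chr7:30183921-30184220 on the plus strand.
Ndufs4: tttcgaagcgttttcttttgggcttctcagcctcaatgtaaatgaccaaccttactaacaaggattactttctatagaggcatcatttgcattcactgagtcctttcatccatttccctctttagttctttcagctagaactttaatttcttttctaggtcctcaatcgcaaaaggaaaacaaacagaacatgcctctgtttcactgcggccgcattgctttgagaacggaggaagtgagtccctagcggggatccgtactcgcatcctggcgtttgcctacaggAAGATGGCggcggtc
Sdhb: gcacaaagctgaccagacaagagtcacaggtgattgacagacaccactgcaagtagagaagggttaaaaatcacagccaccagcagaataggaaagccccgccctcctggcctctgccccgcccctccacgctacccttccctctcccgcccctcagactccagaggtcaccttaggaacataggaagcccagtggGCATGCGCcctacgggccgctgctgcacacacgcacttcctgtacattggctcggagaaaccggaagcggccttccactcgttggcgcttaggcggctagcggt
Cox6a1: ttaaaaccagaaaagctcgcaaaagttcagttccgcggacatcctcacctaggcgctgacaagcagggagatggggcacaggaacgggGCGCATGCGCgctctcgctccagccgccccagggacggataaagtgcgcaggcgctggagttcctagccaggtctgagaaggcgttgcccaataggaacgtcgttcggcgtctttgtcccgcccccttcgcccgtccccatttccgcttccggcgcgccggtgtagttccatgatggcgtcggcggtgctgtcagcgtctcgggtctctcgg
Atp5pb: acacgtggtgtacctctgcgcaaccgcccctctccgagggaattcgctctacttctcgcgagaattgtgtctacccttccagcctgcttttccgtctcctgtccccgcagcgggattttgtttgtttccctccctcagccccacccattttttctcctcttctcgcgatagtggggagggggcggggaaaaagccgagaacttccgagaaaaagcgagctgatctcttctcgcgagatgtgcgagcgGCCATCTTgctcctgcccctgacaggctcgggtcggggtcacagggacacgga
Cox7a1: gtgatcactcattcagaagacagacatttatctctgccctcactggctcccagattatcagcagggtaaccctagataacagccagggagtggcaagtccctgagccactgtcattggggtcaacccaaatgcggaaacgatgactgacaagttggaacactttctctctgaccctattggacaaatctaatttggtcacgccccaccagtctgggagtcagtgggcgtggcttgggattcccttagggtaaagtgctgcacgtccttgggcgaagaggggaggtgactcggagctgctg
The NRF1 motif was in 15.2% of the 66 windows of structural subunits and in 3.66% of 17492 windows of coding genes. The YY1 motif was in 13.6% and 3.21%, an ETS motif (CCGGAAGT) in 7.58% and 5.34%, and an SP1 motif (GGGCGGG) in 31.8% and 34.5%. In Cox6a1 the NRF1 motif reads in both directions with an overlap, which gives 10 bases in capitals. The window of Cox7a1, a muscle-type isoform, held none of the 4 motifs. At least 1 of the NRF1, ETS and YY1 motifs was in 34.8% of the subunit windows and 11.5% of the 17492 windows of coding genes. In the library comparison that follows, subunits with and without one had like medians: the median log2 ratio was -0.84 over 22 subunits with a motif and -0.82 over 40 without.

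Nuclear subunit transcripts were lower in the cKO-labelled biliary fraction, while the mitochondrial mRNAs were close to equal in sum. The 78 nuclear subunit genes summed to 2631 CPM (2605 to 2658) in the cKO-labelled library and to 4550.2 CPM (4512 to 4588) in the control-labelled library, a log2 ratio of -0.79 (-0.81 to -0.77). By well the sums were 3399 CPM in A11, 2226 in A12, 2964 in B1, 2467 in B2 and 2454 in B3. They were 2624 CPM in D9, 5314 in D10, 6322 in D11 and 4999 in D12. All 5 cKO-labelled wells were thus below D10, D11 and D12, and D9 lay among the cKO-labelled wells. The cKO-labelled well was lower in 18 of 20 pairs of wells, and in 15 of 15 pairs without D9. Without D9 the log2 ratio was -1.05.

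**Figure D1:**
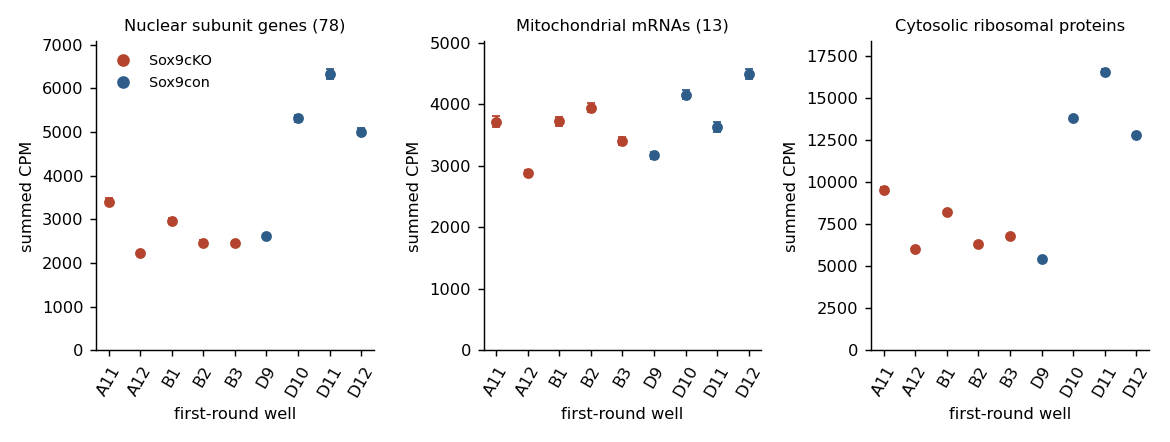
Summed CPM of the nuclear subunit genes, the mitochondrial mRNAs and the cytosolic ribosomal proteins in the biliary fraction of each first-round well, with exact 95% Poisson intervals. The cKO-labelled wells lie between 2226 and 3399 CPM for the nuclear subunits, D10 to D12 between 4999 and 6322 CPM, and D9 at 2624 CPM. The ribosomal proteins are at 5444 CPM in D9 and at 12803 to 16516 CPM in D10 to D12.

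A minimum of 200 UMIs in biliary cells was passed by 75 structural subunits. Of these, 72 were lower by 1.2-fold or more in the cKO-labelled library, where 29.5% of all 9323 genes with as many UMIs were. None was 1.2-fold higher, against 15.3% of all genes. The median over the 75 was -0.81, and over all genes -0.07. A 2-fold lower level was reached by 11 subunits (background 1.78%) and a 2-fold higher one by 0 (background 2.19%). The former is a count that ran from 4 without well D11, where the share of all genes was not recorded, to 48 without D9 (background 4.53%). The subunits short of 1.2-fold were Ndufs1, Ndufs3 and Sdha. Of the 69 subunits that share less than 50% of their sequence with other genes, 67 were lower. In all 20 pairs of wells 5 of the 75 (6.67%) were lower, near the 8.38% of all genes, so this count is no result about the subunits. They were Ndufb7, Cyc1, Uqcrc1, Atp5a1 and Atp5b, and 0 of the 75 were higher in all 20 (background 7.62%). In the 15 pairs without D9 the count was 71 (background 21.6%).

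Complex I, where electrons enter from NADH, had the most members. Its 37 nuclear subunits summed to 799.6 CPM and 1257 CPM in the libraries labelled Sox9cKO and Sox9con, a log2 ratio of -0.65 (-0.69 to -0.62), and 33 of 35 with enough UMIs were 1.2-fold lower. Ndufs4, an accessory subunit needed for a stable complex, had the highest count. Its levels were 107, 90.0, 105, 85.9 and 96.9 CPM in A11 to B3 and 106, 135, 119 and 121 CPM in D9 to D12. The groups overlap only through D9, and the log2 ratio was -0.32 (-0.42 to -0.21). Ndufs7, a core subunit that holds an iron-sulfur cluster, was at 18.9, 8.92, 19.97, 11.3 and 11.04 CPM in the cKO-labelled wells and at 14.6, 28.0, 54.2 and 35.4 CPM in D9 to D12. Its ratio of -1.17 (-1.43 to -0.92) was the lowest of complex I, followed by Ndufa11, an accessory subunit of the membrane arm, at -1.13 (-1.50 to -0.78). At the other end stood Ndufs3, a core subunit whose transcript shares 56.1% of its sequence with other genes, at -0.19 (-0.50 to 0.12). Ndufa10, the subunit with the next highest count after Ndufs4, was at -0.60.

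Complex II had the smallest summed difference, at 161 and 225 CPM and a log2 ratio of -0.48 (-0.56 to -0.40). Sdha, the flavoprotein that oxidises succinate, had 91.7, 74.5, 79.5, 72.8 and 74.5 CPM in A11 to B3 and 87.1, 89.8, 101 and 92.7 CPM in D9 to D12, with a ratio of -0.24 (-0.36 to -0.12). A11 lay above D9 and D10, so the wells overlap for this gene even without D9. The iron-sulfur subunit Sdhb had 41.1, 32.5, 36.6, 34.3 and 29.0 CPM against 33.6, 62.4, 69.2 and 67.8 CPM. For Sdhb the 3 wells D10 to D12 were all above the cKO-labelled wells and D9 was not, and the ratio was -0.70 (-0.87 to -0.53). The membrane anchors Sdhc and Sdhd were at -0.59 and -0.79.

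In complex III the 9 nuclear subunits summed to 357 and 639 CPM, a log2 ratio of -0.84 (-0.89 to -0.79), and all 9 were 1.2-fold lower. Cyc1, the cytochrome c1 that hands electrons to cytochrome c, had 33.1, 20.2, 28.5, 22.6 and 22.4 CPM in A11 to B3 and 34.1, 69.8, 76.2 and 56.6 CPM in D9 to D12. The 2 sets of wells did not overlap for Cyc1, with D9 just above A11, and 8.38% of all genes were likewise lower in all 20 pairs. Its ratio was -1.19 (-1.38 to -1.01). Uqcr11, a small subunit, had the lowest ratio at -1.25 (-1.53 to -0.98), from 11.6 and 27.5 CPM. Uqcrb, another small subunit, was at 73.7, 45.6, 57.0, 47.0 and 50.4 CPM against 41.5, 134, 163 and 114 CPM. D9 was the lowest of all 9 wells for Uqcrb, which shares 59.1% of its sequence with other genes, and the library ratio was -0.97 (-1.10 to -0.84). The core protein Uqcrc2 was at -0.80, the hinge protein Uqcrh at -0.73, and Uqcrq had the ratio nearest to 0 of this complex at -0.46.

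Complex IV was the most uniform, with ratios from -1.08 for Cox8a to -0.67 for Cox7c and all 11 nuclear subunits 1.2-fold lower. They summed to 509 and 930.4 CPM, a log2 ratio of -0.87 (-0.91 to -0.83). Cox4i1, the form of subunit 4 made in most tissues, had 155, 88.7, 138, 107 and 101 CPM in A11 to B3 and 87.1, 251, 291 and 244 CPM in D9 to D12. D9 was again the lowest well, while the other control-labelled wells were above all the cKO-labelled ones, and the library ratio was -0.84 (-0.93 to -0.75). Cox6a1, the form of subunit 6a found outside muscle, had 57.7, 31.5, 54.4, 42.4 and 44.8 CPM against 33.0, 110.0, 135 and 113 CPM, with a ratio of -1.02 (-1.17 to -0.88). Per kilobase of transcript, complex IV subunits had the highest median level of the 5 complexes in the control-labelled library, and Cox4i1 the highest of all nuclear subunits, with 266 CPM per kb against 149 in the cKO-labelled library.

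Complex V had the lowest summed ratio. Its 17 subunits came to 804.6 and 1499 CPM, a log2 ratio of -0.90 (-0.93 to -0.86), and 16 of 16 with enough UMIs were 1.2-fold lower. Atp5b, the catalytic beta subunit, was the most counted nuclear member, with 281, 175, 230.1, 185 and 180.4 CPM in A11 to B3 and 292, 408, 557 and 425 CPM in D9 to D12. For this gene D9 lay above every cKO-labelled well, and the ratio was -0.98 (-1.04 to -0.91). The alpha subunit Atp5a1 did the same, with 181, 106, 145, 146 and 146 CPM against 193, 276, 338 and 230.0 CPM and a ratio of -0.83 (-0.91 to -0.75). Atp5d, the delta subunit of the central stalk, had the lowest ratio of the nuclear subunits at -1.25 (-1.39 to -1.12), from 43.8 and 105 CPM. Atp5pb, the peripheral stalk subunit whose promoter is shown above, was at -0.92 (-1.03 to -0.80). Of the 3 genes for the c ring, Atp5g1 was at -1.10, Atp5g3 at -0.87, and Atp5g2 had 46 and 48 UMIs only. Atp5l, which shares 85.4% of its sequence, was at -0.28 (-0.61 to 0.04), and Atp5j2, the other subunit nearest to 0, at -0.68 (-0.87 to -0.48).

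**Figure D2:**
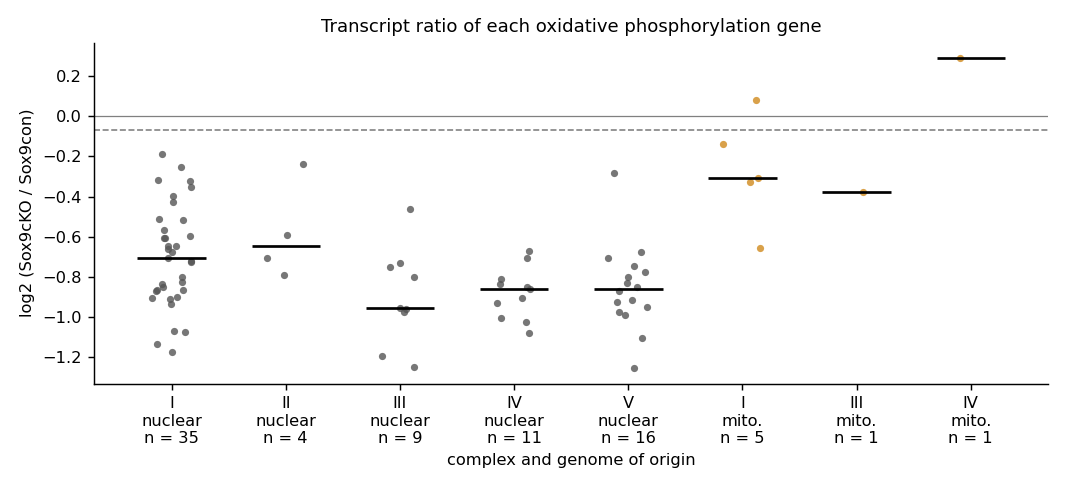
Log2 ratio of cKO-labelled over control-labelled CPM for each member that passed 200 UMIs, by complex and genome, with bars at the medians. The solid line is at 0 and the dashed line at the median of all genes, -0.07. Nuclear subunits run from -1.25 to -0.19, and the 7 mitochondrial mRNAs from -0.65 to 0.29.

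The mitochondrial mRNAs were split. They summed to 3476 CPM (3446 to 3507) and 3829 CPM (3795 to 3864), a log2 ratio of -0.14 (-0.16 to -0.12), which turned to 0.01 with DESeq2 size factors. By well the sums were 3716, 2880.5, 3719, 3940.4 and 3405 CPM in A11 to B3 and 3171, 4155, 3629 and 4486 CPM in D9 to D12. The 2 sets of wells overlap, and the cKO-labelled well was lower in 13 of 20 pairs and in 12 of 15 without D9. The ratio was -0.05 without well A12, -0.06 without D12 and -0.25 without D9. Of 7 mRNAs with at least 200 UMIs, 4 were 1.2-fold lower (mt-Nd2, mt-Nd4, mt-Nd6 and mt-Cytb) and 1 was 1.2-fold higher (mt-Co1), beside the 29.5% and 15.3% of all genes given above.

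mt-Nd4, a proton-pumping subunit of complex I, had the lowest ratio, -0.65 (-0.73 to -0.58). Its levels were 198, 167, 243, 196 and 189 CPM in A11 to B3 and 206, 384, 394 and 304 CPM in D9 to D12, so that D10 to D12 were above all other wells, as in the nuclear sum. mt-Cytb, the membrane-spanning cytochrome of complex III, had 954.6, 704.8, 912, 1022 and 859.9 CPM against 913, 1262, 1120.3 and 1305 CPM, with a ratio of -0.38 (-0.41 to -0.34). D9 lay among the cKO-labelled wells for mt-Cytb too. mt-Nd5, the largest mitochondrial subunit of complex I, was at 898.8, 593, 715, 781 and 654 CPM against 622, 649, 555 and 839 CPM, which overlap throughout, and its ratio was 0.08 (0.04 to 0.12). mt-Co1, the subunit of complex IV that reduces oxygen, had 660.2, 726, 794, 979 and 828 CPM against 617, 617, 408 and 917 CPM. It was higher in the cKO-labelled library, at 0.29 (0.25 to 0.33), with the cKO-labelled well higher in all but 4 of the 20 pairs, and D12 lay above 4 of the 5 cKO-labelled wells. mt-Nd1 was at -0.14, which is 0.01 with DESeq2 size factors, mt-Nd2 at -0.33 and mt-Nd6 at -0.31, the last at 0.01 in cells of 3000 to 5000 UMIs. The mitochondrial ribosomal RNAs, which are no members, summed to 57188 and 55936 CPM, a log2 ratio of 0.03.

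**Figure D3:**
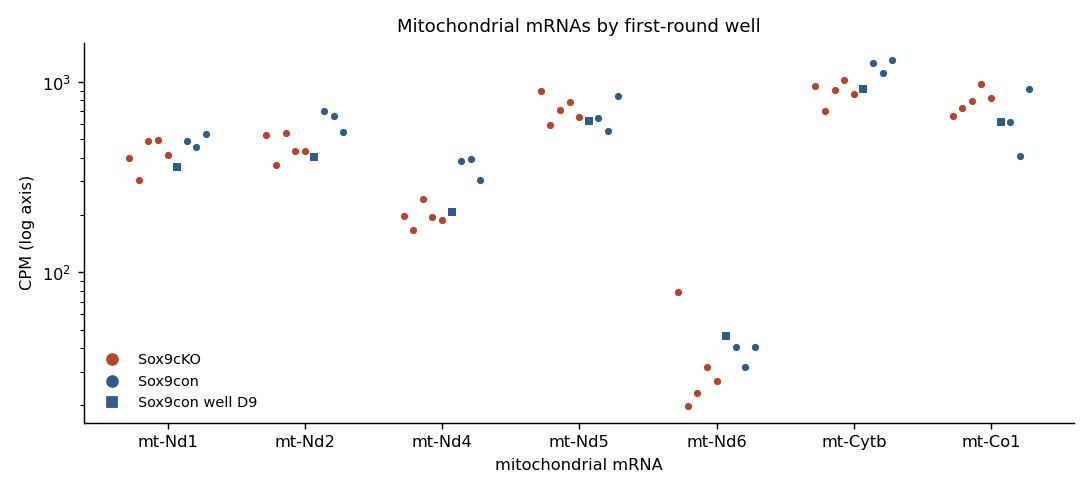
CPM on a log axis of the 7 mitochondrial mRNAs that passed 200 UMIs, in biliary cells of each first-round well. For mt-Nd2, mt-Nd4 and mt-Cytb the wells D10 to D12 lie above all cKO-labelled wells while D9 lies among them, and for mt-Nd5 and mt-Co1 the wells of both labels overlap.

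Set against each other, the 2 genomes gave 1.32 mitochondrial UMIs per nuclear subunit UMI in the cKO-labelled biliary fraction and 0.842 in the control-labelled one, a log2 difference of 0.65 (0.62 to 0.68). By well the ratio was 1.09, 1.29, 1.25, 1.60 and 1.39 in A11 to B3 and 1.21, 0.782, 0.574 and 0.897 in D9 to D12. It was higher in the cKO-labelled well in 19 of 20 pairs. D9 lay above A11 and below the other cKO-labelled wells. That difference came from the lower nuclear sum, at -0.79, and the mitochondrial sum, at -0.14, made it smaller. Within complex I the mitochondrial to nuclear ratio was 2.25 and 1.62 (log2 difference 0.48), within complex III 2.45 and 1.78 (0.46), and within complex IV, with mt-Co1 alone, 1.57 and 0.704 (1.16). The cKO-labelled well had the higher ratio in 18, 16 and 18 of 20 pairs for complexes I, III and IV. In the 15 pairs without D9 it did so in all 15 for each of the 3. D9, at 2.18, 2.69 and 1.49, lay within the range of the cKO-labelled wells for each. Within each of the 8 sublibraries, which hold cells of both labels, the overall difference was positive, from 0.58 to 0.81. Sublibraries are parts of the same 2 libraries, so they are no replicates and do not separate labels from wells.

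Well D9 decided how the nuclear subunits read across wells. Against the summed wells D10 to D12, all 75 structural subunits were at least 1.2-fold lower in the cKO-labelled library (background 32.4%), 48 of them 2-fold (background 4.53%), and 0 were 2-fold higher (background 2.65%). Against D9 alone, 5 were 1.2-fold lower (background 19.4%) and 27 were 1.2-fold higher (background 20.2%), with a median of 0.10. None was 2-fold lower (background 1.03%) or 2-fold higher (background 2.49%). The 5 lower ones were Ndufv1, Cyc1, Atp5a1, Atp5b and Atp5d. Within the control-labelled library, D9 was at least 1.2-fold below D10 to D12 in 73 of the 75 (background 29.6%) and 2-fold below in 52 (background 5.47%) and 2-fold above in 0 (background 0.686%), with a median of -1.29 where that of all genes was -0.05. All 75 were lower in D9 than in each of the other 3 wells, which held for 37.4% of all genes. D9 over D10 to D12 was -1.83 for Cox6a1, -1.57 for Cox4i1, -0.63 for Atp5b, -0.51 for Atp5a1 and -0.11 for Sdha. The median over the 75 was thus lower for D9 against the other wells of its library than between libraries (-0.81), while Atp5b, Atp5a1 and Sdha differed less between these wells than between libraries.

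**Figure D4:**
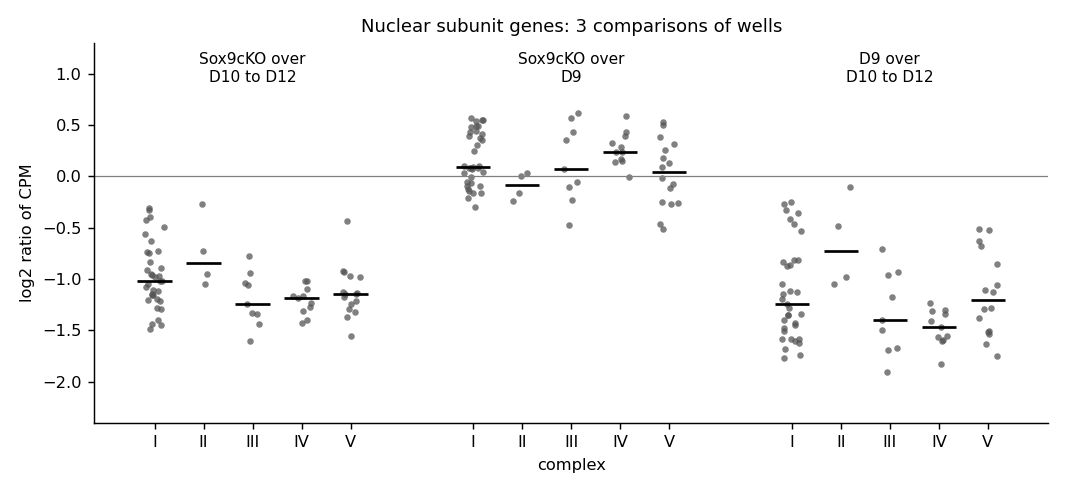
Log2 ratio of CPM of the 75 nuclear structural subunits that passed 200 UMIs, by complex, for the cKO-labelled library over wells D10 to D12, the cKO-labelled library over well D9, and D9 over D10 to D12, with bars at the medians. The comparisons share wells and are not independent. The medians over all 75 are -1.11, 0.10 and -1.29.

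D9 was low in the 4 biliary clusters with most of its cells: 2685 CPM of nuclear subunits against 5041 to 6543 CPM in D10 to D12 in the Muc6, Igfbp5 and Bcl11a cluster, 2671 against 5026 to 6272 in the Gm42031 and Hilpda cluster, 2149.7 against 4116 to 5115 in the Ryr1 and Adgrv1 cluster, and 3714 against 6954 to 9363 in the Slc28a2, Ltf and Anxa10 cluster. D9 also had the deepest cells of the control-labelled wells, with a median of 4344 UMIs against 2393 to 3341. Within every one of the 9 wells the deepest 1 in 3 cells had fewer nuclear subunit CPM than the shallowest, at 0.788 to 0.943 times their level for 2.12 to 2.49 times their depth. The shallowest cells of D9, at a median of 2776 UMIs, had 3006 CPM, and the deepest of D12, at 5190.5 UMIs, had 4613 CPM. The part of depth in the difference between wells was not tested. In cells of 3000 to 5000 UMIs only, the library ratio of nuclear subunits was -0.64 and 54 subunits were 1.2-fold lower. The number of subunits with enough UMIs in these cells was not recorded, nor was the share of all genes that were lower. The count of 54 can therefore not be read as a fall from the count in all biliary cells. The 18S ribosomal RNA gene Rn18s-rs5 was at 44652 CPM in D9, at 15870 to 20019 in D10 to D12 and at 27148 to 64361 in the cKO-labelled wells. With the UMIs of nuclear genes without ribosomal RNA as the total, the library ratio of nuclear subunits was -0.76. The part of this RNA in the difference between wells was not tested.

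Other gene lists placed the members among the nuclear genes for mitochondria and translation, and their counts stand beside 29.5% of all genes lower and 15.3% higher. The 89 cytosolic ribosomal proteins summed to 7183 and 11346 CPM, and 75 of 81 with enough UMIs were 1.2-fold lower in the cKO-labelled library, with a median of -0.64. They followed the same wells: their median was -1.35 in D9 over D10 to D12 and 0.41 in the cKO-labelled library over D9. Mitochondrial ribosomal proteins had 47 of 64 lower and a median of -0.46, and the membrane and import list, with the carriers and the TIM and TOM translocases, 17 of 26 and -0.48. Glycolysis had 8 of 15 lower (median -0.55) and the tricarboxylic acid cycle 9 of 17 (median -0.27). Assembly factors outside the rule had 17 of 28 lower with a median of -0.32. The regulators of mitochondrial biogenesis had 1 of 12 lower and 1 higher (median 0.01), and genes for mitochondrial DNA upkeep and expression 5 of 22 lower and 2 higher (median -0.02, which is within the shift that TMM or DESeq2 factors bring), a share of lower genes near that of all genes. The structural subunits had the lowest median of these lists.

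The 8 Ndufaf assembly factors, which the name rule brings in beside the subunits they help to assemble, were mixed. Of the 5 with at least 200 UMIs, 1 was 1.2-fold lower (Ndufaf6, -0.41) and none was higher, which is near the 29.5% and 15.3% of all genes and no result about these factors. The median of the 5 was -0.06, which is smaller than the shift of 0.15 that DESeq2 size factors bring and turns positive under them. Ndufaf7, a methyltransferase that modifies a core subunit, was at 0.17 (-0.19 to 0.53) and Ndufaf5 at 0.07 (-0.19 to 0.33). Ndufaf2, the assembly factor with the most UMIs, had 50.4 and 52.3 CPM. Cox7a2l, which joins complexes III and IV in supercomplexes, was at -0.59 (-0.76 to -0.41), within the range of the subunits. The 3 with fewer UMIs, Ndufaf1, Ndufaf3 and Ndufaf8, had only 13, 12 and 14 UMIs in D9. D9 over D10 to D12 was -1.06 (-2.07 to -0.19), -1.09 (-2.15 to -0.20) and -1.30 (-2.26 to -0.48) for them. Each was lower in D9 than in all 3 of D10 to D12, as were 2 of the 5 factors with enough UMIs and 37.4% of all genes with at least 200 UMIs. The library ratios of Ndufaf1, Ndufaf3 and Ndufaf8 were -0.07, -0.55 and -0.19. The second Atp5o locus had 82 and 78 UMIs.

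The size of the difference went with the length of the gene. The 24 structural subunit genes that span at most 5 kb had a median log2 ratio of -0.92, the 28 of 5 to 10 kb -0.83, the 13 of 10 to 20 kb -0.71, the 9 of 20 to 50 kb -0.52, and Ndufs4, with 100.5 kb the longest, -0.32. Other protein-coding genes had the same order at a higher level, with -0.53, -0.29, -0.14, -0.03 and 0.03 over 602, 906, 1598, 2715 and 3178 genes. In D9 over D10 to D12 the order was the same again, from -1.56 for the shortest subunit genes to -0.48 for those of 20 to 50 kb and -0.25 for Ndufs4. The random hexamers can also prime on introns, and exonic and intronic reads are not separated in the deposited counts, so the part of introns in this was not tested.

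Tissue isoforms were rare. Cox7a1, the heart and muscle form of subunit 7a, was the only one with more than 100 UMIs, at 29 and 114 UMIs, or 2.02 and 9.37 CPM, a log2 ratio of -2.19 (-2.85 to -1.61). Its UMIs by well were 5, 6, 10, 3 and 5 in A11 to B3 and 17, 30, 29 and 38 in D9 to D12. In CPM all control-labelled wells were above all cKO-labelled wells, D9 included, at 4.35 against at most 3.70. Those 2 nearest wells rest on 17 UMIs in D9 and 10 in B1. Of the genes with at least 200 UMIs, a minimum that Cox7a1 did not reach, 8.38% were lower in all pairs of wells. Its counterpart Cox7a2 stood at 27.9 and 55.9 CPM, with a ratio of -1.01, so the muscle form was a small part of subunit 7a in both libraries. Cox4i2, the lung form of subunit 4, had 17 and 19 UMIs beside 1637 and 2479 of Cox4i1. Cox6b2, the testis form of subunit 6b, had 3 and 15 UMIs. Cox6a2, Cox8b and Cox8c had 0 UMIs in both libraries, and Cox7b2, Cox6c2 and Ndufa4l2 at most 1 in each.

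Endothelial-like cells of the same wells had less of both genomes' transcripts than the biliary cells around them. They had 14 and 13 of 14 endothelial markers at 50 CPM or more, with summed biliary markers of 1280 and 1611 CPM against 10054 and 16030.5 CPM in the biliary fraction, and the part of biliary RNA in their values was not tested. Nuclear subunits stood at 1783 CPM (1622 to 1955) and 2776 CPM (2605 to 2955) in endothelial-like cells of the libraries labelled Sox9cKO and Sox9con, which is 0.677 (0.616 to 0.744) and 0.610 (0.572 to 0.650) of the biliary level. Mitochondrial mRNAs stood at 2060 CPM (1887 to 2245) and 1815 CPM (1677 to 1961), or 0.593 (0.543 to 0.646) and 0.474 (0.438 to 0.512) of it. Both were lower in 9 of 9 wells, the nuclear subunits at 0.522 to 0.751 and the mitochondrial mRNAs at 0.411 to 0.810 of the biliary level. Cytosolic ribosomal proteins were nearer to equal, at 0.903 and 0.802, and the mitochondrial ribosomal RNAs were at 0.589 and 0.433. The mitochondrial to nuclear ratio was 1.16 and 0.654, which is 0.875 (0.770 to 0.993) and 0.777 (0.703 to 0.859) of the biliary ratio, and it was lower in 8 of 9 wells, A11 being the exception at 1.25. By complex, nuclear subunits of endothelial-like cells were at 0.738 and 0.648 of the biliary level for complex I, 0.418 and 0.553 for complex II, 0.688 and 0.566 for complex III, 0.568 and 0.702 for complex IV, and 0.734 and 0.549 for complex V. Complex II rests on 17 and 44 UMIs, with intervals of 0.243 to 0.670 and 0.401 to 0.744. The intervals of the complexes overlap within each library, and their order differs between libraries, so no complex stands apart.

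Between libraries the endothelial-like cells had the direction of the biliary fraction for nuclear subunits. Their mitochondrial mRNAs were near to equal apart from mt-Co1. Their nuclear subunits had a log2 ratio of -0.64 (-0.80 to -0.48) over 450 and 982 UMIs, and the cKO-labelled well was lower in 17 of 20 pairs and in 15 of 15 without D9. By well they were at 2200, 1357, 2228, 1547 and 1821 CPM in A11 to B3 and at 1742, 3319, 3303 and 3586 CPM in D9 to D12. D9 thus stood among the cKO-labelled wells in this cell class as well. The mitochondrial mRNAs had a ratio of 0.18 (0.01 to 0.35), and the cKO-labelled well was lower in 6 of 20 pairs and in 5 of 15 without D9. The biliary fraction had -0.14 (-0.16 to -0.12), which was 0.01 with DESeq2 size factors. Of the endothelial-like mRNAs, mt-Co1 was at 515 and 302 CPM (130 and 107 UMIs), a ratio of 0.77 (0.39 to 1.15), and it was higher in the biliary fraction too. Those of complex I were at -0.004 (-0.25 to 0.24) and mt-Cytb at 0.08 (-0.22 to 0.39).

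**Figure D5:**
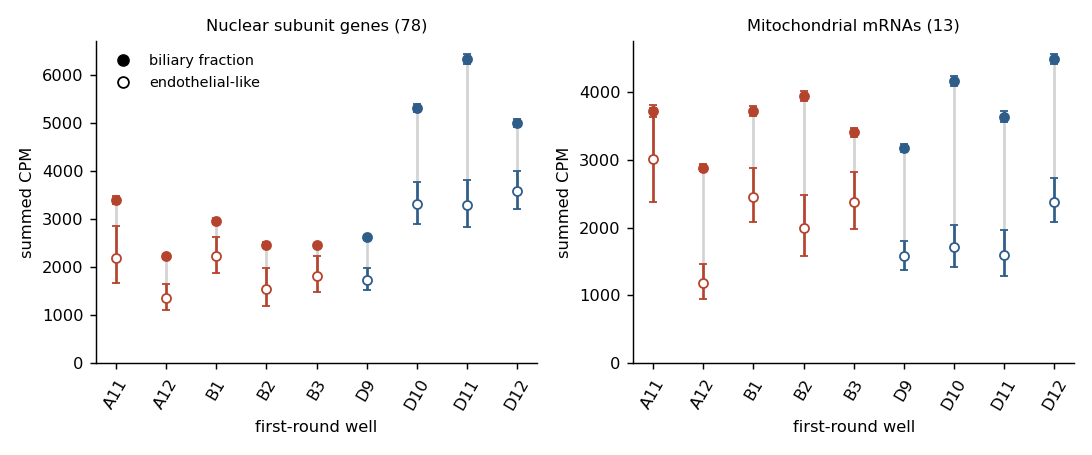
Summed CPM of nuclear subunits and of mitochondrial mRNAs in the biliary fraction (filled) and in endothelial-like cells (open) of each first-round well, joined within a well, with exact 95% Poisson intervals. Red is the library labelled Sox9cKO and blue the library labelled Sox9con. The endothelial-like value is below the biliary one in all 9 wells of both panels.

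Within the biliary fraction, clusters were made without the members. The cluster led by Slc28a2, Ltf and Anxa10 (109 cKO-labelled and 201 control-labelled cells) had more nuclear subunit transcript than its well as a whole in 9 of 9 wells, at 1.31 to 1.48 times in the control-labelled and 1.07 to 1.31 times in the cKO-labelled wells. For mitochondrial mRNAs it stood at 1.62 to 1.76 times in the 4 control-labelled wells and at 0.886 to 1.12 times in the cKO-labelled ones. In CPM the cluster had 6517 of nuclear and 6561 of mitochondrial transcript in the control-labelled library and 3074 and 3557 in the cKO-labelled one. The cluster led by Hp, Serpina1b and Fst, with 570 cells of the cKO-labelled library and 3 of the other, had the lowest mitochondrial mRNA level of its well in 5 of 5 cKO-labelled wells, at 0.752 to 0.832 times the well. The Ryr1 and Adgrv1 cluster had the lowest nuclear level in 6 of 9 wells. With the 4 clusters that have at least 50 cells of each label weighted equally, the library ratio of nuclear subunits was -0.79, as without weighting, and that of the mitochondrial mRNAs was -0.22.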

How the data were processed

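Single-cell RNA sequencing (Evercode split-pool barcoding of fixed cells) was deposited for 1 library per label. Per library the authors deposited a matrix of whole-number UMI counts per gene and cell, not normalized, and tables of its genes and cells. The table of cells also has a score, the transcript count extrapolated to a set duplication rate per the file headers, which was not used. The genome build is GRCm39, per the submitters' processing notes, while the aligner, the annotation release and the use of strand are not given in the sources used here.

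Cells with at least 500 genes and 1000 UMIs and at most 15% of UMIs from mitochondrial genes were kept. Scrublet in scanpy 1.11.5 marked 3 and 2 doublets (0.0786% of 6362 cells), which is too few to take the caller as having worked, and the share of doublets left among the cells was not measured. Clusters (leidenalg 0.10.2, without Sox9 and the members) were named from at least 3 markers at 50 CPM. Counts were summed per library, first-round well and cell class and divided by all UMIs of those cells (CPM). Log2 ratios have 0.5 counts added on both sides. The 95% intervals are exact Poisson for levels, conditional binomial for ratios and normal on the log scale for mitochondrial to nuclear ratios. A gene was counted as lower or higher past 1.2-fold, if it passed 200 UMIs in biliary cells, and no p was computed. The code was tested on simulated data. Depth was 14856321 and 12811243 UMIs. Counting error is small beside the spread between wells for the sums over the biliary fraction, but not for every single gene or for the endothelial-like cells.

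The genes named are the 13 mitochondrial mRNAs, in each complex the 2 nuclear members with most UMIs, the 2 with the lowest and the 2 with the highest ratio, and the isoform pairs. Others, among them Ndufs3, Atp5pb, Ndufaf2, Ndufaf6, Ndufv1 and the genes listed beside small counts, were named after their values were seen. The members, roles and gene lists were chosen with earlier results of these data known. Alternatives were other cell filters, thinning to 2000 UMIs, TMM factors (edgeR 4.0.16), DESeq2 1.42.0 size factors, another total, other member sets and leaving out each well. The restriction to cells of 3000 to 5000 UMIs and the sums without mt-Cytb were added after the data were seen. Gene spans and shared sequence come from GENCODE M21 and promoters from RefSeq, both on GRCm38, a different build from that of the counts, and were matched by gene name or identifier only.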

Additional observations from a re-analysis of the deposited data

How the results depend on the processing

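With 1 library per label nothing here is a test, wells are parts of libraries, and the depth limits the endothelial-like complexes and the rare isoforms most. The log2 ratio of nuclear subunits, -0.79, stayed negative in all alternatives run. It was -0.73 with a stricter cell filter, -0.83 as a mean over cells, -0.69 with TMM factors, -0.64 with DESeq2 size factors, -0.76 over the UMIs of nuclear genes without ribosomal RNA and -0.76 with all members of the name rule. In cells of 3000 to 5000 UMIs it was -0.64, and with 1 well left out in turn it ran from -1.05 (without D9) to -0.67 (without D11). The ratio of mitochondrial mRNAs, -0.14, turned to 0.0114 with DESeq2 size factors. It was -0.11 with the stricter filter, -0.0936 in cells thinned to 2000 UMIs, -0.11 as a mean over cells, -0.0398 with TMM factors, -0.10 over nuclear-gene UMIs, -0.22 with shared clusters weighted equally, -0.0499 without mt-Cytb and -0.0333 in cells of 3000 to 5000 UMIs. Leaving out wells gave -0.25 (D9) to -0.0529 (A12). The difference in the mitochondrial to nuclear ratio, 0.65, was 0.62 with the stricter filter, 0.69 thinned, 0.73 as a mean over cells, 0.62 with all members of the name rule, 0.57 with clusters weighted equally, 0.74 without mt-Cytb and 0.60 in cells of 3000 to 5000 UMIs. Leaving out wells gave 0.51 (D11) to 0.80 (D9). The count of lower subunits, 72 (background 29.5%), ran from 68 to 75 without single wells, and no subunit was higher in any of those. Of these sets, the share of all genes was recorded only without D9, at 32.4% lower and 18.8% higher. Within sublibraries the mean count of higher subunits was 1.625, and the share of all genes was not recorded. For the mitochondrial to nuclear ratio, the log2 endothelial-like to biliary value of the control-labelled library, -0.36, was -0.53 in thinned cells and -0.42 to -0.31 without single wells. That of the cKO-labelled library, -0.19, was -0.0481 as a mean over cells and -0.29 to -0.11 without single wells. Of single genes, mt-Nd6 turned to 0.0138 in cells of 3000 to 5000 UMIs. TMM and DESeq2 factors shifted the median of all genes by 0.10 and 0.15. The cause of these changes was not tested. No paired analysis was possible because each label has 1 library.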

Other observations

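The unnamed cluster led by Gnat3, Fyb and Rgs13 had 18 cKO-labelled and 13 control-labelled cells. Its nuclear subunits stood at 2809 and 5147 CPM and its mitochondrial mRNAs at 2357 and 2634 CPM, so that its mitochondrial to nuclear ratio was 0.839 and 0.512. The 13 and 27 cells left out for more than 15% of UMIs from mitochondrial genes had ratios of 2.44 and 1.33, with nuclear subunits at 2702 and 5974 CPM, close to the 2631 and 4550.2 CPM of the biliary fraction for the former and above it for the latter.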
